A study of Homo sapiens with 20 samples.

Results

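Chromatin loops at 10 genes of the YAP and TEAD pathway were examined in 4 human GBM cell lines. The genes were the coactivators YAP1 and WWTR1 (which encodes TAZ), their DNA-binding partner TEAD1, the regulators LATS2, AJUBA and AMOTL2, the target genes CCN1 (CYR61), CCN2 (CTGF) and ANKRD1, and DDAH1, the neighbour of CCN1. A loop was a pair of 5 kb anchors that ranked among the 300000 strongest pairs of a cell line, and it was assigned to a gene when either anchor lay within 3 kb of an annotated hg19 start site of that gene. By this rule, 656 of the 572000 anchor pairs that occur in the 4 lists belonged to 9 of the 10 genes, and LATS2 had none. The lists held 225 of these pairs in H4 and 242 in H4 88-1, against 454 in 42MGBA and 455 in 42MGBA 53-1.

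H4 and 42MGBA each carry a naturally occurring truncating mutation of STAG2, and the derivatives, H4 88-1 for the former and 42MGBA 53-1 for the latter, are 1 line each in which that mutation was corrected by gene editing. All 4 were cultured in the same serum-containing medium, and the labels name no treatment. Hi-C, which captures pieces of chromatin that lie close together in the nucleus, was performed on 2 replicates per line, and the authors pooled them into 1 list of loop strengths per line. Differences between cell lines therefore have no replicate check and no p-value, and the correction of STAG2 and other properties of the 1 derived line cannot be told apart. The list of each parental line is named as WT by the submitters, while its genotype is labelled STAG2-mutant, and the genotype labels were followed. Listed loops were larger in the line labelled STAG2-mutant of each pair, with a median size of 348 kb in H4 and 312 kb in H4 88-1, against 307 kb in 42MGBA and 257 kb in 42MGBA 53-1. The loop lists hold no expression values, so the genotype and the cell type were not checked by marker genes.

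STAG2 is a subunit of cohesin, the ring-shaped complex that extrudes chromatin into loops and is halted at sites bound by CTCF. In the Hippo pathway, the LATS kinases phosphorylate YAP and TAZ and keep them in the cytoplasm. When the kinases are inactive, YAP and TAZ enter the nucleus, bind TEAD factors and switch on genes such as CCN1, CCN2, ANKRD1 and AMOTL2, often together with AP-1 at distant enhancers. AJUBA binds and restrains LATS kinases, and AMOTL2, a member of the angiomotin family, binds YAP and is both a target and an inhibitor. CCN1 and CCN2 are secreted matricellular proteins, and ANKRD1 is a nuclear ankyrin repeat protein. DDAH1 is an enzyme that degrades asymmetric dimethylarginine and is shown as the genomic neighbour of CCN1.

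The 250 bases upstream of 3 target genes are given first, because the loops described here have an anchor within 3 kb of these starts. They were read from the GRCh37 (hg19) genome 5′ to 3′ on the strand of the gene, from chr1:86046194-86046443 (plus strand) for CCN1, chr6:132272513-132272762 (minus strand) for CCN2 and chr10:92680845-92681094 (minus strand) for ANKRD1. Capitals mark matches to the TEAD element GGAATG or the AP-1 element TGANTCA on either strand.
CCN1 promoter: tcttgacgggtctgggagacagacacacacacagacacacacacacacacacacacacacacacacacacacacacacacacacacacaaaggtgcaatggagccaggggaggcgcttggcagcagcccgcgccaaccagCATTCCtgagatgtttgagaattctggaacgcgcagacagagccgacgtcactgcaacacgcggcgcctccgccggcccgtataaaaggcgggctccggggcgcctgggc
CCN2 promoter: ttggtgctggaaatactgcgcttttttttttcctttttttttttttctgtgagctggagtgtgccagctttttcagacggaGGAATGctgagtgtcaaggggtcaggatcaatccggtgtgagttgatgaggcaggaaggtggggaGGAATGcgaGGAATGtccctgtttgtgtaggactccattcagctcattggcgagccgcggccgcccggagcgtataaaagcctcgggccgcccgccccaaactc
ANKRD1 promoter: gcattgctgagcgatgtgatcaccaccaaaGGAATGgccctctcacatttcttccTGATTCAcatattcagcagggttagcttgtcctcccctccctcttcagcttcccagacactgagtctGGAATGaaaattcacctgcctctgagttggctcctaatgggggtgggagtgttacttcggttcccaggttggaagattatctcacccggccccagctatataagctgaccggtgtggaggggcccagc
CCN2 held 3 TEAD elements in this window, which began 169, 104 and 95 bases before the start. ANKRD1 held 2, at 220 and 128 bases, and 1 AP-1 element at 195 bases, and CCN1 held 1 TEAD element on the opposite strand at 110 bases. Of 20140 protein-coding genes with such a window, 2219 held a TEAD element and 1097 (5.45%) an AP-1 element. YAP1, TEAD1 and DDAH1 also held 1 TEAD element each, so that 6 of the 10 genes had a match and 1 had an AP-1 match. These are matches of letters and not measured binding.

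The CTCF core CCANNAGNNGGC was searched on both strands of every loop anchor. It was found in 48 of the 285 anchors of these genes' loops and in 16.1% of the 128561 anchors of all loops, which is close to the same share (16.8% at the genes). Of the 16 anchors that form the strongest loop of each gene, 5 held a match, at CCN1, AMOTL2, TEAD1 and both anchors of AJUBA. The matches in the anchor shared by CCN1 and DDAH1 (chr1:86042039-86042068, minus strand), at the distal anchor of AMOTL2 (chr3:134192957-134192986, minus strand) and in the anchor near the AJUBA start sites (chr14:23455945-23455974, plus strand) are shown in hg19 with the core in capitals and 9 bases on each side.
CCN1 and DDAH1 anchor: ctggctctgCCATCAGTAGGCtgtggcctt
AMOTL2 anchor: ctacaatacCCAGCAGGGGGCgctcaattc
AJUBA anchor: tgaaactgcCCACCAGGTGGCggtattaac
No match was found in the other anchor of the CCN1 or AMOTL2 loop, which says only that these letters do not occur there.

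Loop strength is the contact signal of an anchor pair after bias correction and enhancement, and has no unit. The weakest listed pair reached 4.14 in H4 and 4.44 in H4 88-1, against 4.49 in 42MGBA and 4.28 in 42MGBA 53-1. A pair that is not listed lies at or below that value and was set to it, so that its ratio is a lower bound on the difference. The direction was counted as unknown where the listed value lay below the floor of the other list. Because the floors differ, a loop listed in H4 88-1 and not in H4, or in 42MGBA and not in 42MGBA 53-1, counts as stronger in the line that lists it by construction, and the reverse cases can only be so or unknown. Of all loops listed in either line of a pair, 22.4% were listed in each H4 line alone and 24.2% in each 42MGBA line alone. The direction was free for loops listed in both lines, of which 64.1% were stronger in H4 88-1 and 35.9% in H4, and 35.5% in 42MGBA 53-1 and 64.5% in 42MGBA. Over all loops listed in either line of a pair, the median log2 of corrected over mutant strength was 0.095 for the H4 lines and -0.077 for the 42MGBA lines, and each gene is read beside that shift and the median of its own chromosome. For calls, the 100000 strongest loops of both lines were merged, the corrected strength was regressed on the mutant strength through the origin, and loops with residuals in the outer 5% of a normal distribution, by z-score on both sides, were named specific, which ranks loops and is no test. Between H4 and H4 88-1, 2.17% of 129476 merged loops were specific to H4 and 1.94% to H4 88-1, and between the 42MGBA lines 2.45% of 131211 were specific to 42MGBA and 1.61% to 42MGBA 53-1. A 1.5-fold difference was also counted, which 0.722% of 386725 listed loops reached in H4 and 2.92% in H4 88-1, and which 3.40% of 395862 reached in 42MGBA and 0.485% in 42MGBA 53-1. Neighbouring anchor pairs can share a contact, so the loops of a gene are not independent.

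Across the 4 lines, loops were listed at 7 of the 10 genes in H4 and 8 in H4 88-1, against 8 in 42MGBA and 9 in 42MGBA 53-1. Of 20163 protein-coding genes, 37.2% had a listed loop in H4 and 36.6% in H4 88-1, against 34.4% in 42MGBA and 33.9% in 42MGBA 53-1. The strongest loop at any of the genes was at CCN1 and reached 17.9 in 42MGBA, while YAP1 had the weakest, at 4.72 in 42MGBA 53-1. WWTR1, CCN1, CCN2, AMOTL2, AJUBA and DDAH1 had more loops in both 42MGBA lines than in either H4 line, and ANKRD1 had a similar number in all 4.

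**Figure D1:**
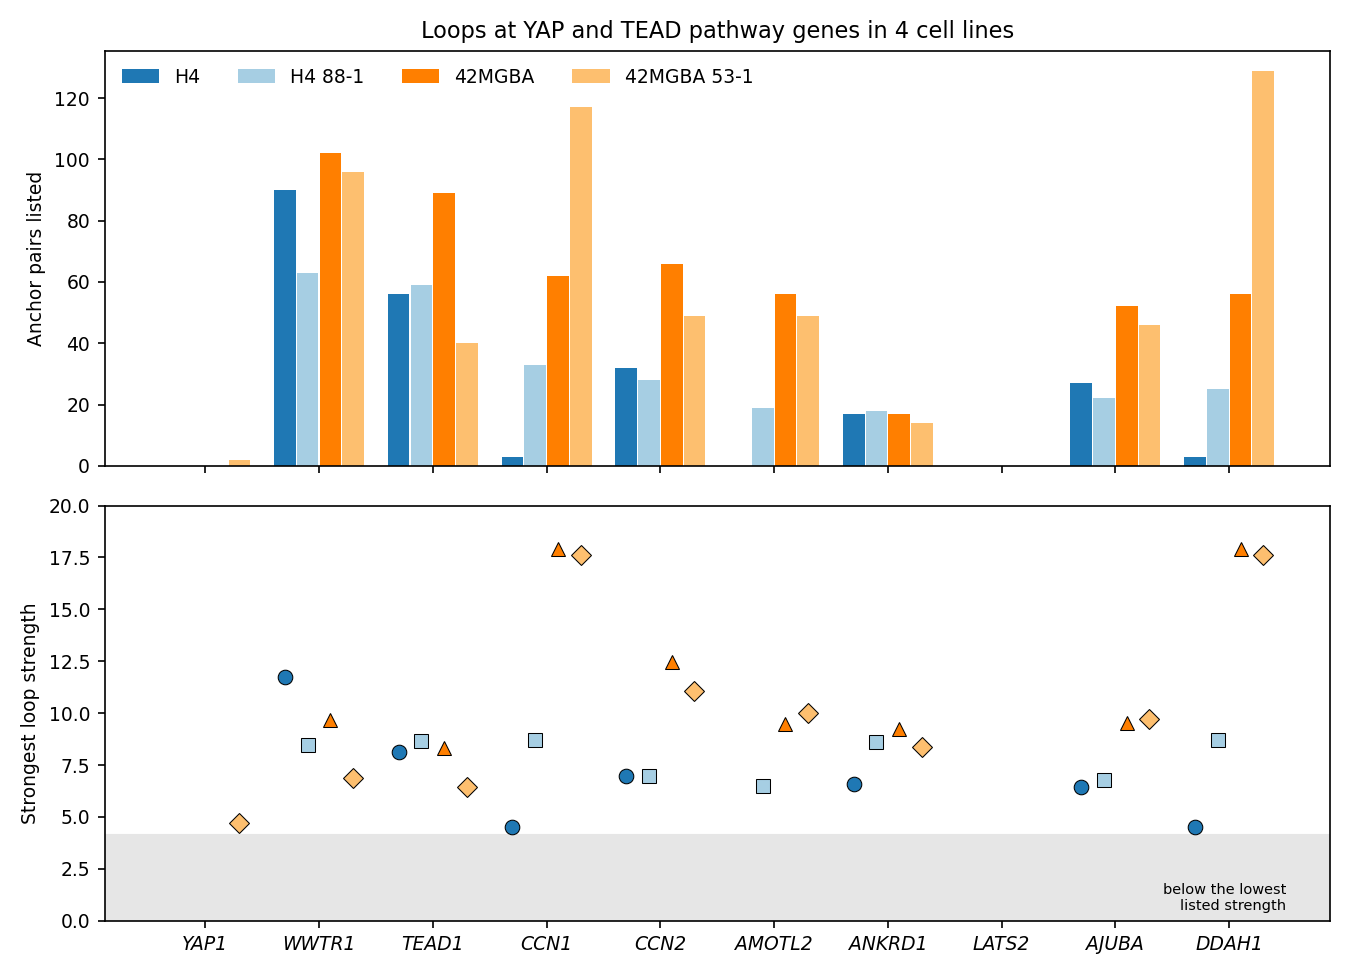
Number of listed anchor pairs (upper panel, bars) and strength of the strongest loop (lower panel, points, no unit) at each gene in the 4 cell lines. CCN1 and DDAH1 share many pairs and go from 3 listed pairs in H4 to 33 and 25 in H4 88-1, and WWTR1 is strongest in H4 at 11.7. The grey band marks strengths below the lowest listed value of any line, and genes without a point have no listed loop.

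Of the coactivators, YAP1 (chr11:101981178-102104155, plus strand) had 2 listed pairs, both in 42MGBA 53-1. They joined its first start sites with an internal start site 110 to 115 kb away and had strengths of 4.72 and 4.57. Both lie just above the lowest listed strength of 42MGBA, so the difference from the other lines is not measurable beyond the limit of the lists. LATS2 (chr13:21547175-21635725, minus strand), a kinase that inactivates YAP and TAZ, had no pair in any list, which leaves loops below the lowest listed strengths undetected.

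WWTR1 (chr3:149235022-149454501, minus strand) had 149 pairs, of which 90 were listed in H4 and 63 in H4 88-1, against 102 in 42MGBA and 96 in 42MGBA 53-1. Its strongest loop joined chr3:149253713-149258044, at a start site inside the gene, with chr3:149431805-149436677 in the 5′ part of the gene, 178 kb away. It measured 11.7 in H4 and 8.45 in H4 88-1, against 9.67 in 42MGBA and 6.36 in 42MGBA 53-1. It was thus weaker in the corrected line of both pairs, 1.39-fold between the H4 lines (z-score -2.24) and 1.52-fold between the 42MGBA lines (z-score -1.58, which does not reach the cutoff). Of the 54 merged loops of WWTR1 between the H4 lines, 3 were specific to H4 and 0 to H4 88-1. All 3 join the start sites nearest the 3′ end to the same distal stretch, as neighbouring anchor pairs, and none of the 3 was called in a regression with an intercept. Of all its listed loops, 1 was at least 1.5-fold stronger in H4.

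Over its 91 listed loops between the H4 lines, WWTR1 had a median log2 ratio of -0.23, with 72 loops stronger in H4, 9 in H4 88-1 and 10 of unknown direction. Of its 62 loops listed in both lines, 54 were stronger in H4. The median over chromosome 3 was 0.10 in the same pair, so that WWTR1 lay on the other side of both the chromosome and the pair. Between 42MGBA and 42MGBA 53-1, 77 of 125 loops were stronger in 42MGBA and 42 in 42MGBA 53-1, and the median of -0.097 was close to the chromosome median of -0.10, a difference of 0.0040. Over the 27 merged loops, which are the stronger ones, the median was -0.45, beside -0.11 for all merged loops of the pair. None of those merged loops was specific, with a most extreme z-score of -1.85, and 11 loops were at least 1.5-fold stronger in 42MGBA.

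The loops of WWTR1 differed by start site. At the outermost start site (149454501), 24 of 27 loops were stronger in H4 than in H4 88-1 and 23 of 23 were stronger in 42MGBA than in 42MGBA 53-1, with medians of -0.26 and -0.39, though 42MGBA 53-1 listed only 14 of the 23. At the start sites around 149375222 to 149375828, no loop was listed in either H4 line, 16 were listed in 42MGBA and 33 in 42MGBA 53-1, and 28 of the 34 were stronger in 42MGBA 53-1, with a median of 0.074. The direction within the 42MGBA pair was therefore not the same at all promoters of this gene. The grouping by start site was chosen after the values were seen.

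TEAD1 (chr11:12695968-12966284, plus strand) had 137 pairs, with 56 listed in H4 and 59 in H4 88-1, against 89 in 42MGBA and 40 in 42MGBA 53-1. The H4 and 42MGBA lines placed their strongest loops in different regions. One region (chr11:12336257-12448568) overlaps MICAL2 and PARVA and lies 255 to 565 kb from the anchors at TEAD1. Loops to it numbered 47 in H4 and 49 in H4 88-1, against 27 in 42MGBA and 3 in 42MGBA 53-1. Their strongest values were 8.11, 8.65, 5.92 and 4.79. Loops within TEAD1 (chr11:12781514-12934936) numbered 6, 8, 59 and 37 in the same order, with strongest values of 4.93, 5.86, 8.33 and 6.46. Loops to the region of MICAL2 and PARVA thus led in the H4 lines, and loops inside TEAD1 led in the 42MGBA lines. PARVA is an actin-binding focal adhesion gene. In that region, the loop from chr11:12345907-12350812 to chr11:12901671-12906423 reached 7.38 in H4 and 8.64 in H4 88-1. The loop to the same TEAD1 anchor from chr11:12428737-12433749, in PARVA, reached 7.71 and 8.65.

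For H4 and H4 88-1, the 72 listed loops of TEAD1 had a median log2 ratio of 0.10, near the 0.11 of chromosome 11, with 41 stronger in H4 88-1 and 25 in H4. At the first start sites (12695968 to 12697050) 20 of 24 loops were stronger in H4 88-1. Only 12 of these 24 were listed in H4 and 21 in H4 88-1, so the listing alone fixed the direction of part of them. At the internal start site (12900990), with 44 loops listed in H4 and 40 in H4 88-1, 23 were stronger in H4 88-1 and 24 in H4. Among the 42MGBA lines, 88 of 90 loops were stronger in 42MGBA, 1 in 42MGBA 53-1 and 1 was of unknown direction, with a median of -0.22. Of the 90, 50 were listed in 42MGBA alone of the pair, beside 24.2% of all loops, and so could not count otherwise. Of the 39 listed in both lines 38 were stronger in 42MGBA, beside 64.5% of all such loops. The median over all loops of chromosome 11 was also -0.22. The 17 merged loops of TEAD1, a stronger set, had a median of -0.47, beside -0.11 for all merged loops of the pair. Relative to the chromosome, the median for the H4 lines turned to -0.013. The TEAD1 loop furthest from the regression line between the 42MGBA lines (chr11:12698741-12703681 with chr11:12862901-12867876, 164 kb) had a strength of 7.75 in 42MGBA and 4.67 in 42MGBA 53-1, and a z-score of -1.55. No loop of TEAD1 was specific in either pair, and the most extreme z-score between the H4 lines was -0.65.

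**Figure D2:**
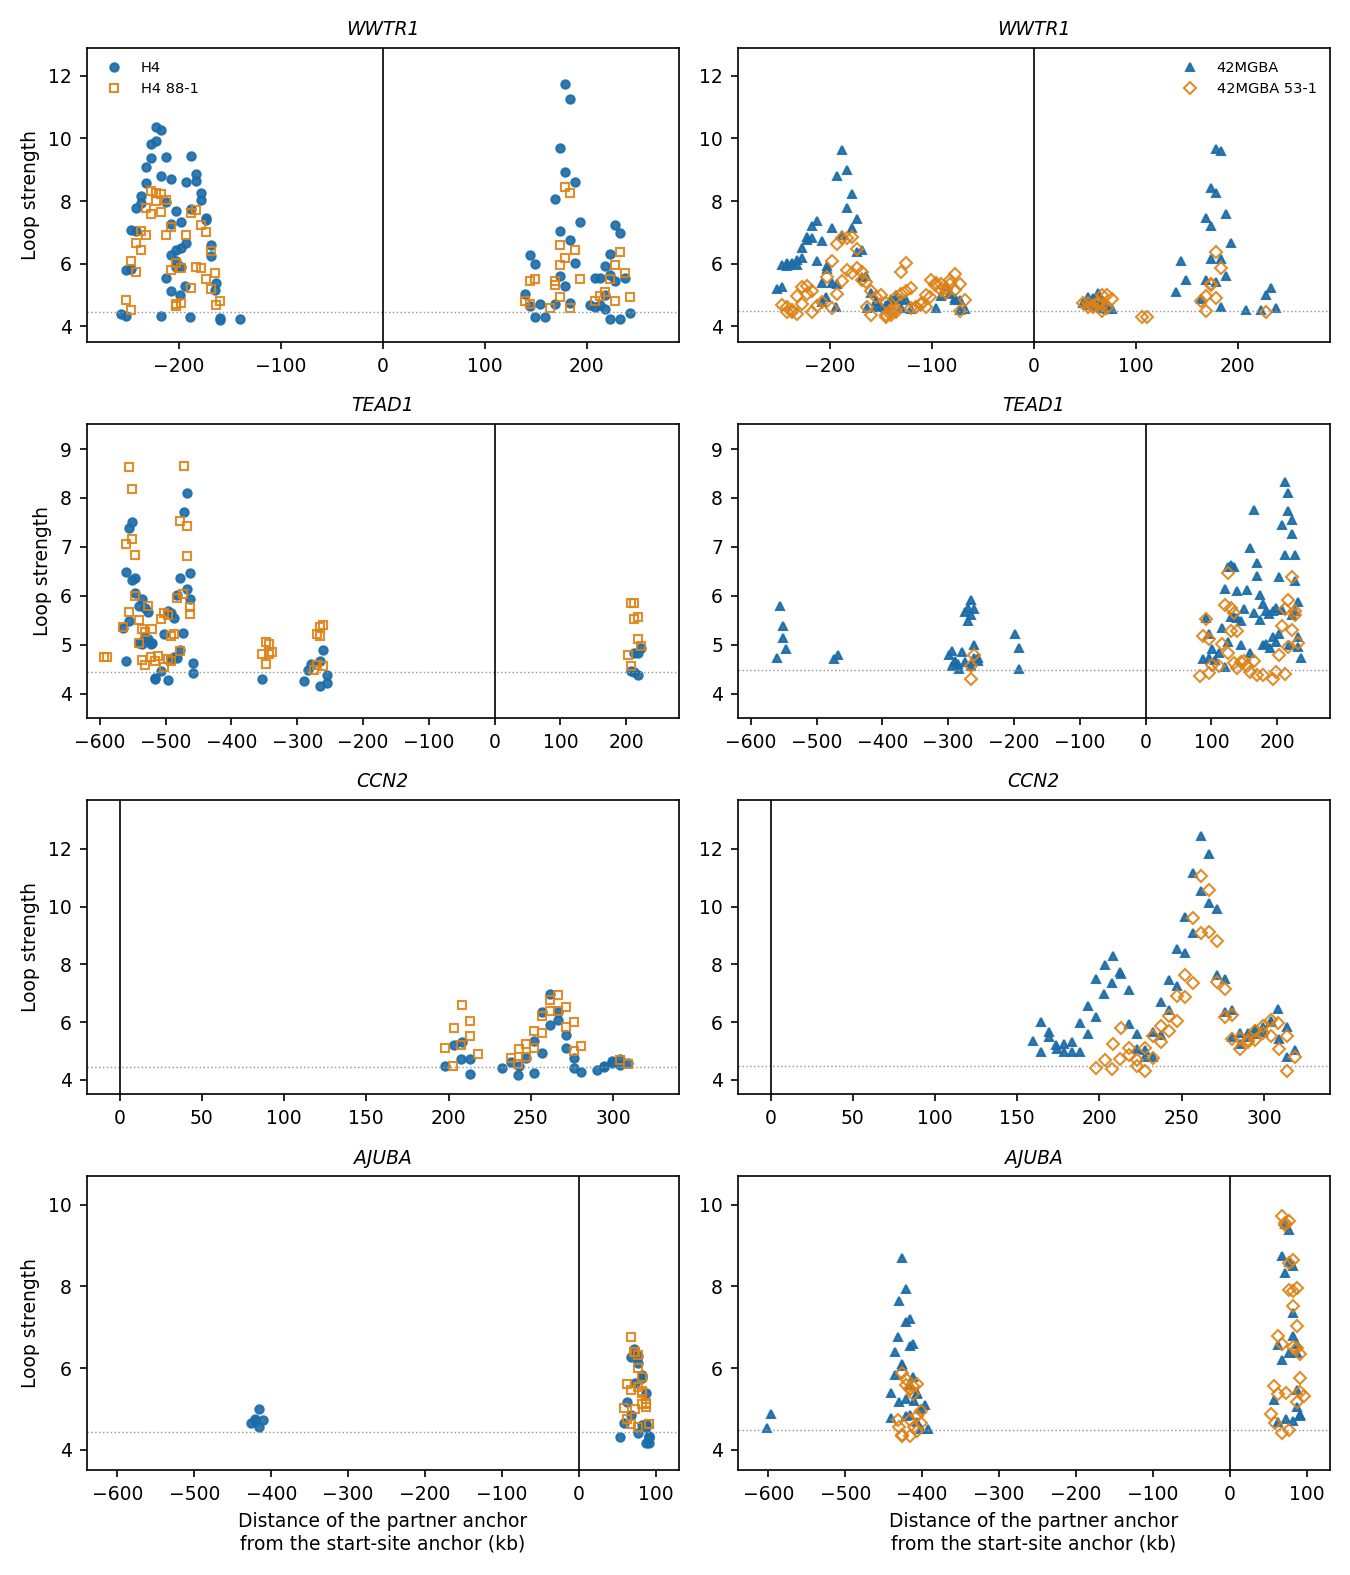
Strength (no unit) of each listed loop of WWTR1, TEAD1, CCN2 and AJUBA against the distance in kb from the start-site anchor to the partner anchor, with the H4 pair on the left and the 42MGBA pair on the right. Filled points are STAG2-mutant lines and open points STAG2-corrected lines, and the dotted line is the higher of the lowest listed strengths of the pair. Loops of AJUBA on the DAD1 side, left of 0, reach 8.70 in 42MGBA and 5.88 in 42MGBA 53-1, while those on the right reach 9.51 and 9.72.

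Of the regulators, AJUBA (chr14:23440386-23451760, minus strand) had 27 listed loops in H4 and 22 in H4 88-1, against 52 in 42MGBA and 46 in 42MGBA 53-1. They reached in both directions. Loops to a region around DAD1 (chr14:23008965-23057605, 392 to 441 kb away) numbered 6, 0, 28 and 19 in this order, and the strongest was 5.00 in H4, 8.70 in 42MGBA and 5.88 in 42MGBA 53-1. Loops to a region with the start sites of PSMB11, CDH24 and ACIN1 (chr14:23507746-23551089, 53 to 97 kb away) numbered 21, 22, 22 and 27, with strongest values of 6.46, 6.77, 9.51 and 9.72. For 42MGBA and its derivative, the regions moved in opposite directions, with 26 of 29 loops on the DAD1 side stronger in 42MGBA (median log2 ratio -0.25) and 24 of 27 on the other side stronger in 42MGBA 53-1 (median 0.14). Among the H4 lines, all 6 loops on the DAD1 side were listed in H4 and not in H4 88-1, and on the other side 17 of 26 were stronger in H4 88-1. Over all its loops the medians were 0.077 between the H4 lines and -0.015 between the 42MGBA lines, and both changed sign relative to the chromosome (-0.015 and 0.0081). No AJUBA loop was specific.

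The strongest loop of AJUBA joined chr14:23454466-23459445 with chr14:23522089-23526783 at a CDH24 start site, 67.5 kb away. Loop strength there was 6.28 in H4 and 6.77 in H4 88-1, against 8.73 in 42MGBA and 9.72 in 42MGBA 53-1. It was higher in the corrected line of both pairs, with z-scores of 0.073 and 1.07 that do not reach the cutoff. The most extreme z-scores of AJUBA were negative. They were -0.66 between the H4 lines (6.29 in H4 and 5.55 in H4 88-1) and -1.57, on the DAD1 side, between the 42MGBA lines (7.63 in 42MGBA and 4.55 in 42MGBA 53-1).

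AMOTL2 (chr3:134074189-134094321, minus strand) had 0 listed loops in H4 and 19 in H4 88-1, against 56 in 42MGBA and 49 in 42MGBA 53-1. No loop was listed in both H4 lines, so the direction of the 19 follows from their listing in H4 88-1 and is no separate result. Of all loops of this pair, 22.4% were listed in H4 88-1 alone. Their median log2 ratio was at least 0.36 beside 0.10 for chromosome 3, and 3 of them were at least 1.5-fold stronger in H4 88-1. Of the 19 loops, 8 reached chr3:134020017-134049475, which overlaps no protein-coding gene, and 11 reached chr3:134166590-134215826 with the start sites of ANAPC13 and CEP63. The strongest loop over the 4 lines joined chr3:134078875-134083643 with chr3:134191236-134196132, 112 kb away and next to ANAPC13. It was not listed in H4 and had a strength of 5.62 in H4 88-1, 9.20 in 42MGBA and 9.99 in 42MGBA 53-1. Between the 42MGBA lines, 30 of 60 loops were stronger in 42MGBA 53-1 and 27 in 42MGBA, with a median of -0.0017 that lay above the chromosome median of -0.10 and became 0.099 relative to it. Another group of 4 loops, to chr3:134137222-134152043, was listed in 42MGBA alone. No AMOTL2 loop was specific in either pair, and the largest z-scores were 1.22 and 1.30.

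**Figure D3:**
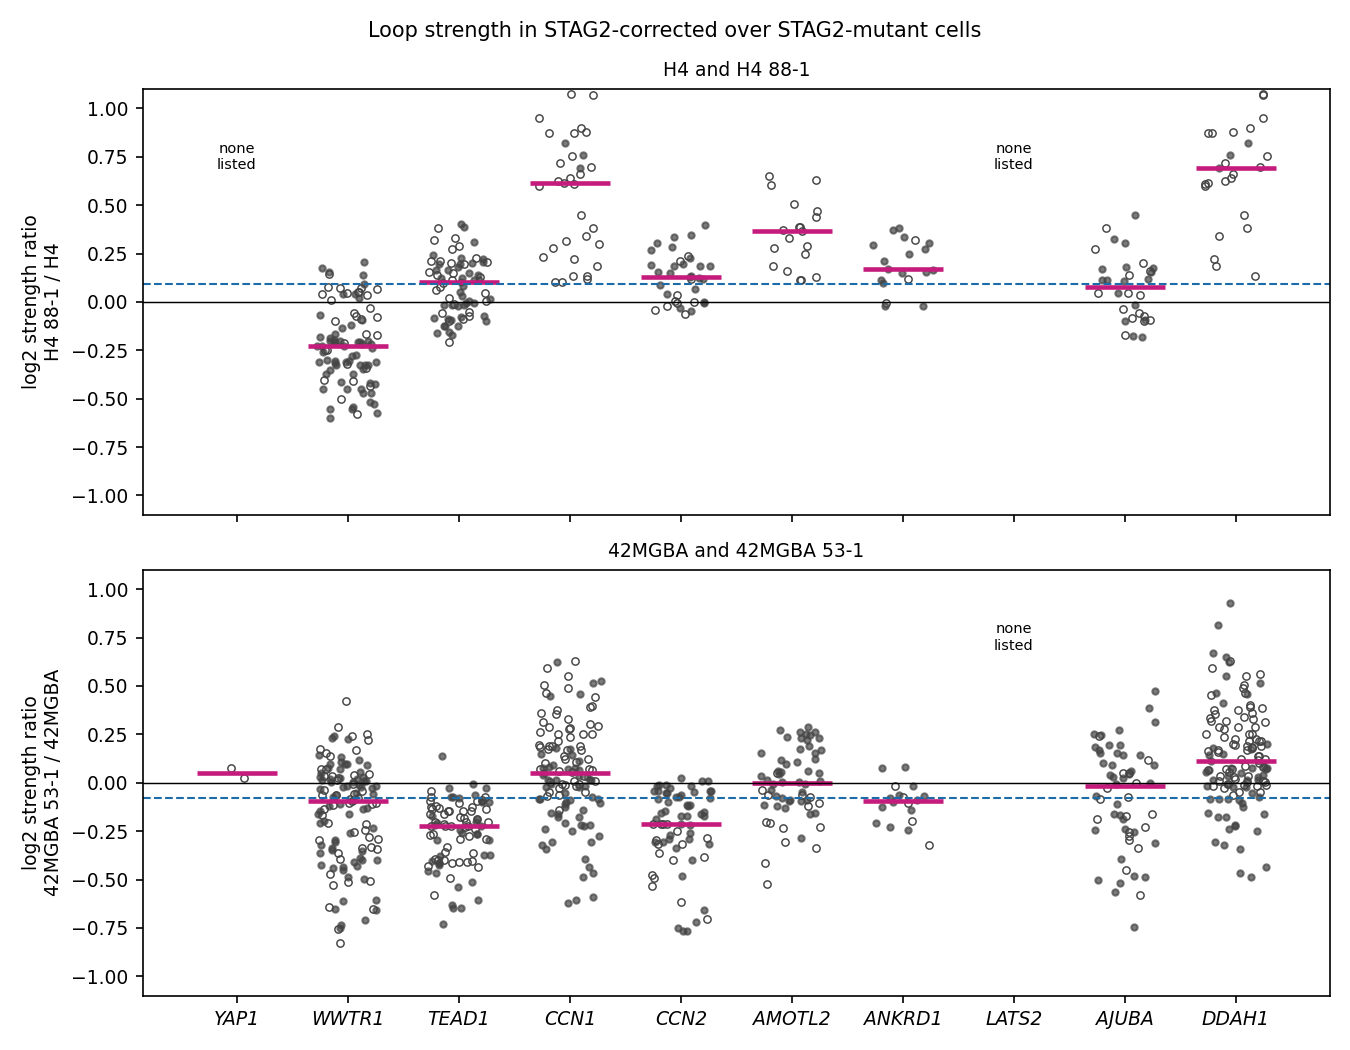
log2 ratio of STAG2-corrected over STAG2-mutant loop strength for each loop listed in either line of a pair (points), by gene, for the H4 pair (upper panel) and the 42MGBA pair (lower panel). Filled points are listed in both lines, open points in 1 line with the other set to its lowest listed strength, thick bars are gene medians, the solid line is a ratio of 1 and the dashed line is the median over all loops of the pair. For H4 and H4 88-1, the medians run from -0.23 at WWTR1 to 0.69 at DDAH1, and between the 42MGBA lines from -0.22 at TEAD1 to 0.11 at DDAH1.

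CCN1 (chr1:86046444-86050272, plus strand) had the largest median ratio between H4 88-1 and H4 among the target genes. It had 3 listed loops in H4 and 33 in H4 88-1, against 62 in 42MGBA and 117 in 42MGBA 53-1, and the strongest of each line was 4.53, 8.73, 17.9 and 17.6. By rank these stood at 227361 in H4 and 27417 in H4 88-1, against 774 in 42MGBA and 472 in 42MGBA 53-1. Of the 33 loops listed between the H4 lines, 30 were not listed in H4, which fixes their direction. Over all loops of this pair, 22.4% were listed in H4 88-1 alone. The other 3 loops of CCN1 were listed in both lines and were stronger in H4 88-1, with a median log2 ratio of 0.76. Over all 33 the median was 0.62, a lower bound, beside 0.092 for chromosome 1, and 19 loops were at least 1.5-fold stronger in H4 88-1.

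Of the 19 merged loops of CCN1 between the H4 lines, 3 were specific to H4 88-1 and 0 to H4. All 3 use the anchor chr1:86040701-86045331, which contains the outermost start site of DDAH1 and ends within 3 kb of those of CCN1, and neighbouring partners inside DDAH1. None is listed in H4, so none is called when absent loops are left out. The one with the largest z-score (2.53) joined it with chr1:85793303-85798023, 247 kb away. This loop was not listed in H4, which puts it at or below 4.14, and it had a strength of 8.73 in H4 88-1, so that it was at least 2.11-fold higher there. In the 42MGBA lines the same loop had strengths of 14.3 and 12.3, with a z-score of -0.45. The loop thus differed between H4 and H4 88-1 but was among the strong loops of both 42MGBA lines.

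The strongest CCN1 loop over the 4 lines joined chr1:85774194-85779153, just beyond the 3′ end of DDAH1 and outside protein-coding genes, with the same shared anchor, 266 kb away. Loop strength there was 4.23 in H4 and 7.49 in H4 88-1, against 17.9 in 42MGBA and 17.6 in 42MGBA 53-1. The H4 value is near the lowest value of its list, and the 42MGBA lines differed 1.02-fold.

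The loops of CCN1 were also counted by anchor, a split added after the values were seen. The anchor that holds its start sites (chr1:86045332-86049968) had 0 listed loops in H4 and 12 in H4 88-1, against 22 in 42MGBA and 38 in 42MGBA 53-1. The strongest reached 7.59 in H4 88-1, 17.2 in 42MGBA and 15.3 in 42MGBA 53-1, and no loop of this anchor was specific in either pair. The anchor shared with DDAH1 had 3 and 13 listed loops in the H4 lines, and the specific loops of CCN1 all used it.

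Among the 42MGBA lines, the direction at CCN1 differed with the size of the loop. Of 60 loops of 200 kb or more, 38 were stronger in 42MGBA, 21 in 42MGBA 53-1 and 1 was of unknown direction, with a median log2 ratio of -0.083 beside -0.066 for chromosome 1. Of 58 loops under 200 kb, 5 were listed in 42MGBA and 58 in 42MGBA 53-1, so that most could count only as stronger in 42MGBA 53-1 or unknown. The 5 listed in both lines were stronger in 42MGBA 53-1, with a median of 0.51, and the median over the 58 was 0.22. The loops under 200 kb ran to the body of DDAH1 on one side and to ZNHIT6 on the other. The loops to ZNHIT6 (chr1:86083262-86173296, 33 to 119 kb away) numbered 3 in 42MGBA and 26 in 42MGBA 53-1, with strongest values of 5.27 and 7.38. No loop under 200 kb was listed in either H4 line. The size of 200 kb was chosen after the values were seen. With all sizes together, 71 of 118 loops were stronger in 42MGBA 53-1 and 38 in 42MGBA, and the median was 0.053 (-0.082 over the loops listed in both lines). No loop of CCN1 was specific in this pair, and the most extreme z-score was -1.87, at a loop of 271 kb.

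**Figure D4:**
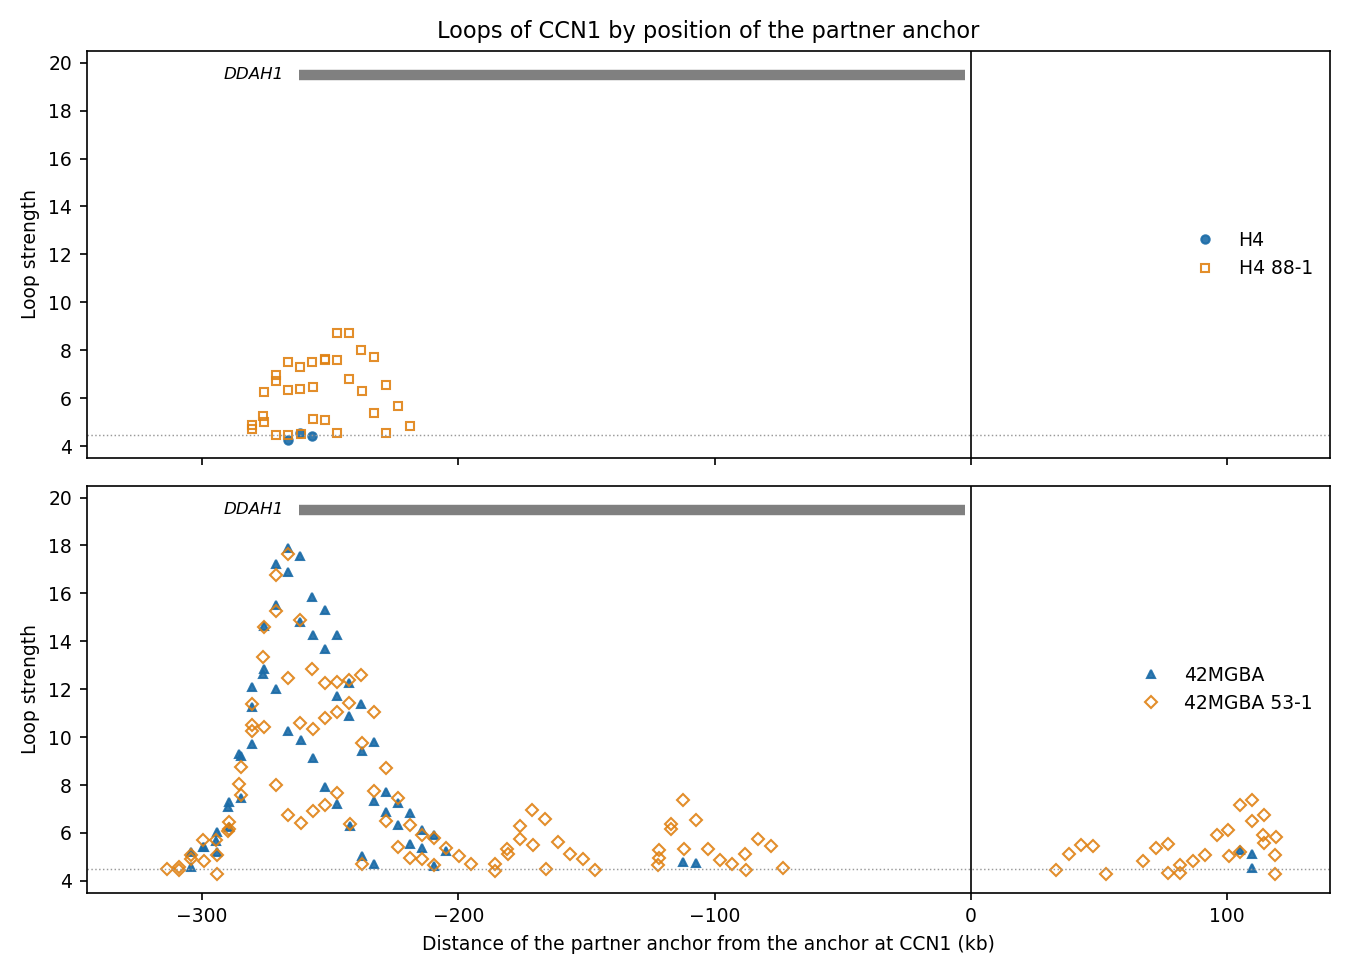
Strength (no unit) of each listed loop of CCN1 against the distance in kb from the CCN1 anchor to the partner anchor, with the H4 lines above and the 42MGBA lines below (filled points STAG2-mutant, open points STAG2-corrected, dotted line the higher of the lowest listed strengths). The grey bar is the DDAH1 gene. H4 has 3 loops, where H4 88-1 has 33 of up to 8.73, and 42MGBA 53-1 has 58 loops within 200 kb where 42MGBA has 5.

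Loops from CCN1 to start sites of DDAH1 (chr1:85784164-86044046, minus strand) could be seen only at its internal start sites, 85870211 and 85930842, because its outermost start site (86044046) shares anchors with CCN1. The genes have 87 anchor pairs in common for that reason. In all, 11 anchor pairs joined CCN1 with an internal start site of DDAH1, over 107 to 181 kb. None was listed in H4 or H4 88-1, 2 were listed in 42MGBA and all 11 in 42MGBA 53-1. The 2 in 42MGBA had strengths of 4.80 and 4.76, and the 11 in 42MGBA 53-1 ran from 4.94 to 7.39 with a median of 6.18. The 2 loops listed in both lines were stronger in 42MGBA 53-1, and the other 9 were listed there alone, as were 24.2% of all loops of this pair. The median log2 ratio was 0.46 and the range over the loops was 0.14 to 0.63, of which 9 are lower bounds. The loops share 3 anchors within 3 kb of the CCN1 start sites. The strongest use chr1:86040701-86045331, which holds the outermost DDAH1 start site and no CCN1 start site. The 2 loops listed in both lines also use that anchor. From the anchor that holds the CCN1 start sites (chr1:86045332-86049968), these loops were listed in 42MGBA 53-1 alone, so their ratios are lower bounds.

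The strongest of these joined chr1:85928383-85933199 with chr1:86040701-86045331 and had a strength of 4.80 in 42MGBA and 7.39 in 42MGBA 53-1. With the partner anywhere in the body of DDAH1, 64 loops of CCN1 were listed between the 42MGBA lines, 34 in 42MGBA and 63 in 42MGBA 53-1, and the median log2 ratio was 0.060, smaller than at the start sites. Between H4 and H4 88-1, 22 such loops were listed, 1 in H4 and 22 in H4 88-1, with a median of at least 0.63.

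**Figure D5:**
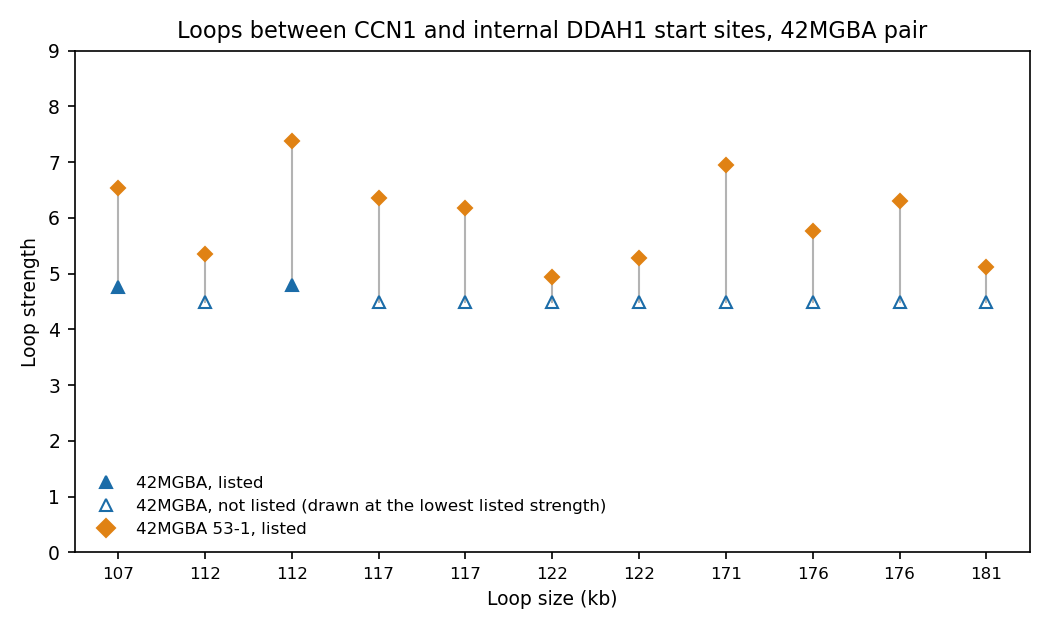
Strength (no unit) of the 11 loops between CCN1 and the internal start sites of DDAH1 in 42MGBA (triangles) and 42MGBA 53-1 (diamonds), ordered by loop size in kb. Open triangles are loops not listed in 42MGBA, drawn at its lowest listed strength of 4.49. The 2 filled triangles lie at 4.76 and 4.80 and the diamonds above them at 6.54 and 7.39.

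DDAH1 itself had 3 listed loops in H4 and 25 in H4 88-1, against 56 in 42MGBA and 129 in 42MGBA 53-1. Among the H4 lines, 22 of the 25 were listed in H4 88-1 alone, beside 22.4% of all loops of the pair, which fixes their direction. The 3 listed in both lines were stronger in H4 88-1. The median log2 ratio was at least 0.69, and the 25 loops used the start site shared with CCN1. Between 42MGBA and 42MGBA 53-1, 94 of 129 were stronger in 42MGBA 53-1 and 26 in 42MGBA, with a median of 0.11. Of the 129, however, 73 were listed in 42MGBA 53-1 alone, beside 24.2% of all loops of the pair. Over the 56 listed in both lines the median was 0.015. The internal start site at 85930842 had 0 loops in either H4 line, 10 in 42MGBA and 43 in 42MGBA 53-1, with a strongest loop of 6.44 and 9.43. The 10 listed in both lines were stronger in 42MGBA 53-1.

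Of 55 merged loops of DDAH1 between the 42MGBA lines, 5 were specific to 42MGBA 53-1 and 0 to 42MGBA. All 5 joined this internal start site with the region at the 3′ end of the gene that also forms the strongest loop with CCN1, over 149 to 164 kb, and are neighbours. None of the 5 is assigned to DDAH1 when the start of the gene record alone is used. The one with the largest z-score (2.87) joined chr1:85769309-85774193 with chr1:85923438-85928382 and had a strength of 4.72 in 42MGBA and 8.96 in 42MGBA 53-1. The distal region therefore had strong loops to the anchors at CCN1 in both 42MGBA lines and stronger loops to the internal DDAH1 start site in 42MGBA 53-1.

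CCN2 (chr6:132269316-132272512, minus strand) had 32 listed loops in H4 and 28 in H4 88-1, against 66 in 42MGBA and 49 in 42MGBA 53-1. All of them ran to 1 region upstream of the gene, chr6:132432725-132591995, which overlaps no protein-coding gene and lies 160 to 319 kb away. The strongest loop joined chr6:132273315-132277878 with chr6:132535046-132539791, 262 kb away. Loop strength there was 6.96 in H4 and 6.75 in H4 88-1, against 12.5 in 42MGBA and 11.1 in 42MGBA 53-1. The same loop thus led in H4 and both 42MGBA lines, and the difference within a pair was small beside that between the parental lines.

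Between the H4 lines, 24 of 35 loops of CCN2 were stronger in H4 88-1 and 9 in H4, with a median log2 ratio of 0.13 beside 0.071 for chromosome 6. Among the 42MGBA lines, 63 of 66 were stronger in 42MGBA and 3 in 42MGBA 53-1, with a median of -0.21 beside -0.18 for the chromosome, and 46 of the 49 listed in both lines were stronger in 42MGBA. The loops under 230 kb, a size chosen after the values were seen, differed more, with 29 listed in 42MGBA and 12 in 42MGBA 53-1, a median of -0.36 and strongest values of 8.28 and 5.81. The 37 loops of 230 kb or more were listed in both lines and had a median of -0.084. For H4 and H4 88-1, the 8 loops under 230 kb were all stronger in H4 88-1, with a median of 0.21. For 42MGBA and its derivative, 7 loops were at least 1.5-fold stronger in 42MGBA, and the largest z-score in size, -1.67 at 203 kb, did not reach the cutoff. The largest in size between the H4 lines was 0.54.

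ANKRD1 (chr10:92671853-92680844, minus strand) had 17 listed loops in H4 and 18 in H4 88-1, against 17 in 42MGBA and 14 in 42MGBA 53-1. All ran to a region at PCGF5 (chr10:92973972-93056447), which encodes a Polycomb group protein, 296 to 375 kb away. The strongest loop was the same in the 4 lines and joined chr10:92677387-92682291 with chr10:93007852-93012785. Loop strength there was 6.60 in H4 and 8.60 in H4 88-1, against 9.25 in 42MGBA and 8.39 in 42MGBA 53-1. Between the H4 lines, 16 of 19 loops were stronger in H4 88-1, with a median log2 ratio of 0.17 beside 0.11 for chromosome 10, and between the 42MGBA lines 15 of 18 were stronger in 42MGBA, with a median of -0.093 beside -0.010. No ANKRD1 loop was specific, and the largest z-scores were 0.97 and 0.53.

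Over all of these genes, 301 loops were listed between the H4 lines and 579 between the 42MGBA lines. Their median log2 ratios, with absent loops set to the floor, were 0.078 and -0.074, near those of all loops. Of those listed in both H4 lines, 83 were stronger in H4 88-1 and 83 in H4, with a median of 0.0019. All loops listed in both H4 lines had a median of 0.088, with 64.1% stronger in H4 88-1. Of those listed in both 42MGBA lines, 35.2% were stronger in 42MGBA 53-1, beside 35.5% of all such loops, with medians of -0.077 and -0.086. Between H4 and H4 88-1, 6 of 108 merged loops (5.56%, beside 4.11% of all merged loops) were specific. These were the 3 at WWTR1 to H4 and the 3 at CCN1 and DDAH1 to H4 88-1. Between the 42MGBA lines, 5 of 210 (2.38%, beside 4.06% of all merged loops) were specific, all at DDAH1 and all to 42MGBA 53-1. This one-sidedness depended on the setting, since with the 200000 strongest loops of each line merged 15 were specific to 42MGBA and 10 to 42MGBA 53-1, and among loops of similar size 10 and 5. A 1.5-fold difference was reached by 1 of the 301 loops in H4 (0.722% of all loops) and 22 in H4 88-1 (2.92% of all loops). Between the 42MGBA lines it was reached by 27 of the 579 in 42MGBA (3.40% of all loops) and 7 in 42MGBA 53-1 (0.485% of all loops). The 1.5-fold share was below that of all loops in H4 and above it in the other lines, but the counts rest on few genes. Of the 22 in H4 88-1, 19 were pairs shared by CCN1 and DDAH1. The 7 in 42MGBA 53-1 were all at DDAH1, and 3 of them were also assigned to CCN1. Of the 27 in 42MGBA, 11 were at WWTR1, 7 at CCN2 and 5 at TEAD1. All counts include neighbouring pairs, so the shares are no result about the genes as a set.

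Among 44 other genes of the Hippo pathway, 33 had a loop in any list, with 23 in H4 and 23 in H4 88-1, against 30 in 42MGBA and 28 in 42MGBA 53-1. The shares of all protein-coding genes, in the same order of lines, were 37.2%, 36.6%, 34.4% and 33.9%. These were all 16 target genes, 14 of 21 upstream and core genes and 3 of 7 genes for TEAD and VGLL factors. Among the H4 lines, 17 of the genes had a merged loop. Of these, 2 had a loop specific to H4, beside 5.86% of 4765 genes with a merged loop, and 3 had one specific to H4 88-1, beside 9.55%. Between 42MGBA and 42MGBA 53-1, 24 had a merged loop. Of these, 6 had a loop specific to 42MGBA, beside 7.14% of 4568 genes, and 5 had one specific to 42MGBA 53-1, beside 6.37%. In both pairs a gene counts when any of its merged loops is specific, so genes with more loops count more easily. Between the 42MGBA lines FRMD6 had 207 merged loops, IGFBP3 197 and SAV1 1. The shares of all genes are not matched for this number, so no enrichment can be read from them. The median over the genes' median log2 ratios was 0.12 for 25 of them between the H4 lines and -0.091 for 31 between the 42MGBA lines, beside 0.11 for 8564 genes and -0.079 for 7976 genes.

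The named members of that list were those with the largest z-scores. IGFBP3, a binding protein for insulin-like growth factors, had a loop of 1162 kb (chr7:45962885-45967853 with chr7:47125335-47129869) that was weaker in the corrected line of both pairs. Loop strength there was 30.3 in H4 and 24.1 in H4 88-1, against 16.8 in 42MGBA and 8.66 in 42MGBA 53-1, with z-scores of -4.23 and -4.17. The difference was 1.26-fold between the H4 lines, less than 1.5-fold, and 1.94-fold between the 42MGBA lines. The z-score is taken on strength and not on the ratio, so a very strong loop can be extreme at a small ratio. FOXF2, a forkhead transcription factor, and FJX1 had loops specific to the corrected line of H4 and to the mutant line of 42MGBA. The leading FOXF2 loop of the H4 pair (z-score 2.40) had strengths of 6.97 in H4 and 11.4 in H4 88-1, against 10.6 and 7.08 in the 42MGBA lines, and another FOXF2 loop led the 42MGBA pair (z-score -4.16) with 13.0 in 42MGBA and 5.23 in 42MGBA 53-1. FJX1 had a z-score of 2.25 between the H4 lines and, at another loop, -3.33 between the 42MGBA lines. The other named loops between the H4 lines were at TGFB2 (z-score -2.77) and FRMD6 (2.53), and between the 42MGBA lines at F3 (2.66), MAP4K4 (2.62) and DOCK5 (-2.41). TGFB2 and FRMD6 also had a loop specific to 42MGBA 53-1.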

How the data were processed

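Hi-C was performed with the Arima kit. Per the paper's methods and the submitters' processing notes, reads were trimmed, aligned to hg19 with Bowtie, assigned to 5 kb anchor pairs, corrected with HiCorr and enhanced with the LoopEnhance step of DeepLoop. The authors deposited loop strength as a signal for 300000 pairs of each line, with 2 replicates pooled. These lists hold no read counts, so depth, counting error and replicate spread are unknown. Loops were matched to start sites of GENCODE 44 on the same build. Partner anchors within 10 kb were joined into regions. The form of the authors' regression is not given in the sources used here, and a fit through the origin was used. Named were each gene's strongest loop, its most extreme z-score in each pair, every loop from CCN1 to DDAH1, and up to 6 genes per pair of a wider Hippo list. The genes and lists were chosen with earlier results of these data known. The regression and the matching were tested on simulated data, which checks the code and not the calls. The simulated loops had equal noise about a line through the origin, none was absent from a list, and the planted shifts lay far beyond the cutoff. The 12 RNA-seq samples were not analysed here. Python 3.11.15 with numpy 2.4.6, pandas 2.3.3 and matplotlib 3.10.9 was used.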

Additional observations from a re-analysis of the deposited data

Results flagged for a closer look

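The median log2 ratio of STAG2-corrected over STAG2-mutant strength had opposite signs in the H4 and 42MGBA pairs at 5 genes. It was 0.10 and -0.22 at TEAD1, 0.13 and -0.21 at CCN2, 0.36 and -0.0017 at AMOTL2, 0.17 and -0.093 at ANKRD1, and 0.077 and -0.015 at AJUBA. The difference between the pairs was not tested, since each line has 1 pooled list. Over all loops the medians of the pairs also had opposite signs, 0.095 and -0.077.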

How the results depend on the processing

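No paired analysis was possible because the replicates of a line are pooled in the lists, and for the same reason no replicate could be left out. The counts of specific loops moved with the setting. In the H4 pair the 6 loops became 2 with an intercept, 16 with the top 200000 loops, 33 with all 300000, 14 with log2 ratios taken within the chromosome, 21 among loops of similar size, 3 with absent loops left out and 3 with the gene record start alone. In the 42MGBA pair the 5 became 9 with an intercept, 8 on the log2 scale (1 specific to 42MGBA), 25 with the top 200000 loops (15 specific to 42MGBA), 46 with all 300000 (26), 9 within the chromosome (1), 15 among loops of similar size (10), 9 with absent loops left out (4), 2 with the start site inside the anchor, 12 within 10 kb (5) and 0 with the gene record start alone. Loops specific to H4 numbered 0 with an intercept, on the log2 scale and with the gene record start, and loops specific to H4 88-1 numbered 0 with absent loops left out.

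The median for the loops from CCN1 to DDAH1 start sites was 0.52 minus the chromosome median and 0.060 with partners anywhere in DDAH1. Medians that changed sign were those of WWTR1 (0.0040) in the 42MGBA pair and TEAD1 (-0.013) in the H4 pair minus the chromosome median, CCN1 in the 42MGBA pair with absent loops left out (-0.082) or the start site inside the anchor (-0.022), AMOTL2 in the 42MGBA pair with merged loops (0.11), absent loops left out (0.051), or minus the pair (0.075) or chromosome median (0.099), AJUBA in the H4 pair minus the pair (-0.017) or chromosome median (-0.015), and AJUBA in the 42MGBA pair with merged loops (0.031), absent loops left out (0.035), or minus the pair (0.062) or chromosome median (0.0081). Without a change of sign, the median over the merged loops was -0.45 at WWTR1 and -0.47 at TEAD1 between the 42MGBA lines. It was 0.63 at AMOTL2, 0.31 at ANKRD1 and 0.015 at AJUBA between the H4 lines. Over all merged loops it was -0.11 between the 42MGBA lines and 0.074 between the H4 lines. The cause was not tested. The splits by size and start site were added after the data were seen.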
